A study of Mus musculus with 18 samples.

Results

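The glutamine tRNAs of mouse brain were followed through total tRNA, tRNA held in ribosomes and tRNA fragments, in wild-type (WT) mice and in mice lacking Ftsj1 (KO). They were taken as every entry of the deposited count table whose amino acid is Gln, which gave 5 of 147 entries and 2 of 54 anticodon families. Gln3, Gln5 and Gln6 carry the anticodon CTG, and Gln8 and Gln9 carry TTG. Entries that share an anticodon but differ elsewhere in the molecule are isodecoders, and the 2 anticodon families of glutamine are its isoacceptors.

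The mice were male C57BL/6 animals aged 8 weeks, 3 WT and 3 Ftsj1 KO, and each gave 1 library of each kind, 18 in all. Brains were snap-frozen, total tRNA and shorter tRNA-derived RNA were excised from a gel of total RNA, and ribosome-contained tRNA was recovered after ribosome profiling. All RNA was treated with AlkB, an enzyme that strips base methyl groups able to stop reverse transcriptase, and then sequenced on a MiSeq. The sources used here do not describe the KO allele or say whether the animals were littermates.

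Glutamine is encoded by CAG and CAA. The CTG anticodon pairs with CAG, and the TTG anticodon pairs with CAA and, through its modified wobble uridine, can also read CAG. Both families are charged by the same glutaminyl-tRNA synthetase. FTSJ1 is a methyltransferase that adds methyl groups to the ribose of anticodon loop nucleotides, and work in human cells has listed Gln-CTG among the tRNAs that carry such a group at the first base of the loop. Cleavage of tRNA in or near the anticodon loop gives fragments, some of which have been linked to stress responses and to the control of translation.

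Libraries held 1505291 to 2000422 reads for total tRNA, 406764 to 672127 for ribosome-contained tRNA and 85323 to 151056 for fragments. Replicates of a group differed by more than counting error, with a chi-square per degree of freedom of 4.005 to 145 between pairs, so each mouse was counted as a separate sample. Ftsj1 mRNA is not part of tRNA libraries, so the knockout was not checked here. Every share below is a percentage of the tRNA reads of its library, so a rise of one tRNA lowers the others. In whole brain, fewer cells of a type and less RNA per cell cannot be told apart.

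Gln-CTG was the major glutamine family in all 18 libraries. In total tRNA it made up 1.36%, 1.27% and 1.36% of reads in WT mice 1 to 3, and 1.38%, 1.36% and 1.26% in KO mice 1 to 3. Gln-TTG made up 0.160%, 0.157% and 0.158% in WT and 0.191%, 0.198% and 0.170% in KO. The genotypes overlapped for Gln-CTG, while every KO mouse lay above every WT mouse for Gln-TTG. With 3 mice against 3, full separation in either direction has a probability of 0.1 under random labels, here and below. The share of all families or entries that separated was not counted, so separation without a passed test is a description only. By mean WT share, Gln-CTG stood 29th and Gln-TTG 46th of 54 families, below the median family at 1.45%. The NCBI RefSeq annotation of GRCm38.p6 lists 10 mouse genes for Gln-CTG and 6 for Gln-TTG, and the table does not tie its entries to these genes.

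A single isodecoder carried most of the reads of each family. Gln3 held 20244, 19337 and 21033 reads of WT total tRNA and 27204, 20360 and 23087 of KO total tRNA. Gln9 held 2406, 2416 and 2464 reads in WT and 3814, 3007 and 3159 in KO. The remaining 3 isodecoders were scarce in this library type: Gln5 held between 164 and 180 reads in the WT mice and between 251 and 362 in the KO mice. Gln6 held 10 to 23 and 19 to 56 reads, and Gln8 at most 3 reads in any mouse. Gln8 was therefore left out of the tests on isodecoders by their filter on low counts, and Gln6 and Gln8 could not be compared between genotypes in fragments.

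**Figure D1:**
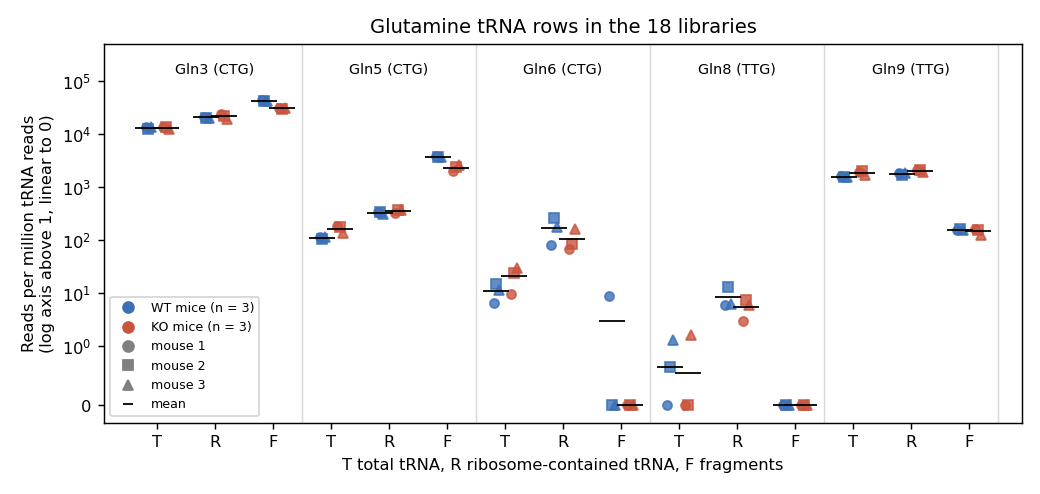
RPM, reads scaled to a common number of tRNA reads per library (log axis above 1, linear down to 0), of the 5 glutamine isodecoders in total tRNA (T), ribosome-contained tRNA (R) and fragments (F). Points are mice, blue for WT and red for KO, and bars are means of 3 mice; Gln3 is highest in every library type, Gln5 is higher in fragments than in total tRNA, and Gln9 is lower.

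The first contrast was between library types within WT brain. The 2 glutamine families went opposite ways: Gln-CTG took a larger share of fragments than of total tRNA, and Gln-TTG a smaller one. In fragments, Gln-CTG made up 4.71%, 4.57% and 4.55% of reads in WT mice 1 to 3. Gln-TTG made up 0.0158%, 0.0164% and 0.0154% there, from 18, 14 and 16 reads. No fragment library of either genotype overlapped a total tRNA library for either family. Divided mouse by mouse, the fragment share was 3.47 ± 0.130 times the total tRNA share for Gln-CTG and 0.1002 ± 0.00372 times for Gln-TTG (SD, n = 3 WT mice).

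Of 49 families tested between WT fragments and WT total tRNA, 85.7% differed, so passing this test was common. Gln-CTG differed by 2.07 on the log2 scale (SE 0.06) with an adjusted p of 3.77e-15 in the quasi-likelihood test of edgeR (Benjamini-Hochberg adjustment, used throughout), the 4th highest difference. Gln-TTG differed by -3.05 (SE 0.14) with an adjusted p of 3e-12 in the same edgeR fit, the 8th lowest. The median family differed by -0.46 under the scaling used (TMM factors) and by -0.77 to -0.14 under the other scalings tried. Gln-CTG stayed between 1.76 and 2.39 and Gln-TTG between -3.36 and -2.73 over 14 alternative settings. In rank of share, Gln-CTG moved from 29th in total tRNA to 8th in fragments, while Gln-TTG was 46th in both.

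**Figure D2:**
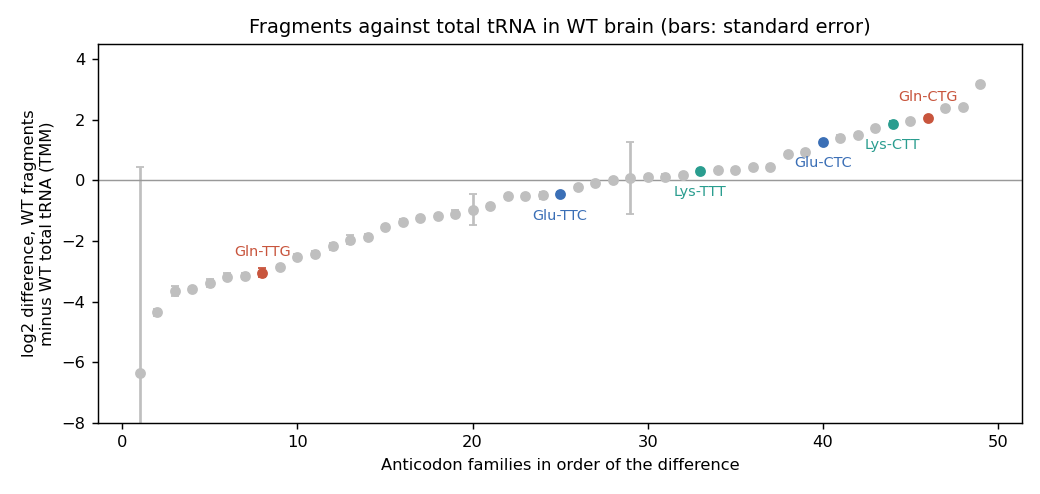
Difference between WT fragments and WT total tRNA (log2, TMM scaling) for the 49 families tested, in ascending order, with standard errors as bars (that of the lowest family runs past the axis). Glutamine families are red, glutamate blue and lysine green; Gln-CTG lies 4th from the top at 2.07 and Gln-TTG 8th from the bottom at -3.05.

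Within Gln-CTG, fragments did not come from its isodecoders in the proportions of total tRNA. Gln5, a minor isodecoder, was 0.838% ± 0.0102 of Gln-CTG reads in WT total tRNA and 8.04% ± 0.105 in WT fragments (SD, n = 3 mice). Its fragment reads were 436, 309 and 382 in WT, more than the 169, 164 and 180 in the much deeper total tRNA libraries of the same mice. Over the 6 mice of both genotypes the Gln5 part of Gln-CTG was 6.50 percentage points higher in fragments, in 6 of 6 mice (exact sign-flip permutation p = 0.03125, two-sided, the smallest that 6 mice allow; 0.03125 after adjustment over the 2 library-type tests of this measure). The measure was added after the values were seen, so this p-value describes the difference and is no independent test of it. The fragment share of Gln5 was 34.1, 34.0 and 31.8 times its total tRNA share in WT mice 1 to 3, against 3.22, 3.35 and 3.10 times for Gln3. No fragment to total ratio of Gln5 in WT came near one of Gln3. In the fit on isodecoders, where 80% of 105 differed between WT fragments and WT total tRNA, Gln5 was higher by 4.86 (SE 0.12), Gln3 higher by 1.49 (SE 0.08) and Gln9 lower, at -3.52 (SE 0.15), on the log2 scale, with edgeR adjusted p of 1.52e-18, 9.31e-14 and 6.27e-15. Reads that match several near-identical isodecoders can have been split between them, by a rule the sources used here do not state.

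Gln6 was hardly seen in fragments. It held 40, 141 and 109 reads in WT ribosome-contained tRNA, but 1, 0 and 0 in WT fragments and 0 in all 3 KO fragment libraries. A count of 0 there allows a share of up to 0.00199% to 0.00352%, depending on the library (3 reads, counting error only). The mean share of Gln6 in WT total tRNA, 0.0011%, lay below these limits, so the counts of 0 do not show a lower share in fragments. Between WT fragments and WT total tRNA Gln6 differed by -1.90 on the log2 scale (SE 1.63, edgeR adjusted p = 0.279), which did not pass. Gln8, the minor TTG isodecoder, had 0 reads in all 6 fragment libraries, and its highest count anywhere was 7, in a ribosome-contained WT library. Gln9 alone therefore gave the Gln-TTG fragment signal.

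The tRNA held in ribosomes is the pool engaged in or near translation. Gln-CTG made up 2.13%, 2.11% and 2.09% of ribosome-contained reads in WT mice 1 to 3 and 2.41%, 2.22% and 2.00% in KO. Gln-TTG made up 0.185%, 0.168% and 0.182% in WT and 0.209%, 0.209% and 0.196% in KO. Every ribosome-contained library exceeded every total tRNA library for Gln-CTG. The ribosome-contained share was 1.59 ± 0.0624 times the total tRNA share for Gln-CTG and 1.13 ± 0.0480 times for Gln-TTG in WT (SD, n = 3 mice).

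Of 51 families tested between WT ribosome-contained and WT total tRNA, 74.5% differed. Gln-CTG was higher in ribosomes by 0.62 on the log2 scale (SE 0.09, edgeR adjusted p = 6.43e-08), the 14th highest difference. Gln-TTG differed by 0.12 (SE 0.12, edgeR adjusted p = 0.351), which did not pass. A minimum count of 50 in the filter gave 0.18 for Gln-TTG with an adjusted p of 0.0402 in edgeR. Among the isodecoders, the ribosome-contained share was 12.2, 17.6 and 15.01 times the total tRNA share for Gln6 in WT mice 1 to 3, and 2.96, 3.20 and 2.67 times for Gln5. Gln3 lay between 1.52 and 1.63 in WT and Gln9 between 1.06 and 1.15, so the share ratios of the scarce CTG isodecoders were the higher ones. The Gln6 ratios rest on 10 to 23 total tRNA reads.

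In edgeR's fit on isodecoders, 80.5% of 118 differed between WT ribosome-contained and WT total tRNA. Gln6 was higher in ribosomes by 3.48 on the log2 scale (SE 0.44, edgeR adjusted p = 2.6e-08) and Gln5 by 1.11 (SE 0.19, edgeR adjusted p = 7.96e-06), and both calls held in all 14 alternative settings. Gln3 differed by 0.20 (SE 0.11, edgeR adjusted p = 0.0819), and passed in 6 of 14 alternative settings, among them the fit with the mouse as a replicate block (adjusted p = 0.0395 in edgeR). Its size moved with the scaling, to 0.64 with total reads and 0.54 with TMM within each library type. Gln3 held 34116 of the 34947 Gln-CTG reads in WT ribosome-contained tRNA. Its 0.20 and the 0.62 of the family come from fits with different scaling factors, and their share ratios were alike. Gln9 differed by -0.28 (SE 0.12, edgeR adjusted p = 0.0334), but its direction turned with the scaling, to 0.17 with total reads and 0.07 with TMM within each library type, and its share ratio was above 1. No direction is given for Gln9 in ribosomes.

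**Figure D3:**
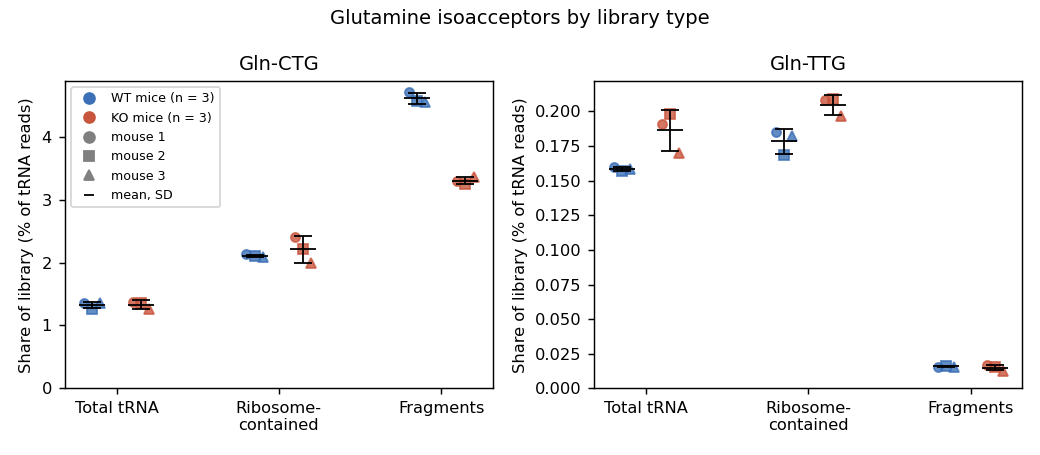
Share of all tRNA reads (%) of Gln-CTG (left) and Gln-TTG (right, on its own axis) in total tRNA, ribosome-contained tRNA and fragments. Points are mice and bars mean and SD over 3 mice; WT fragments hold 4.61% Gln-CTG against 3.30% in KO, and Gln-TTG is near 0.016% in fragments of both genotypes.

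The balance between the isoacceptors was then followed within glutamine, a measure that no scaling between libraries touches. Gln-CTG was 89.5%, 89.0% and 89.6% of glutamine reads in total tRNA of WT mice 1 to 3, and 87.9%, 87.3% and 88.1% in KO. In ribosome-contained tRNA it was 92.0%, 92.6% and 92.0% in WT and 92.0%, 91.4% and 91.0% in KO. In fragments it was 99.6% to 99.7% in WT and 99.5% to 99.6% in KO. The balance leaned further towards CTG in ribosomes, and furthest in fragments, in each of the 6 mice. Against total tRNA the difference was 3.30 ± 0.774 percentage points in ribosomes and 11.1 ± 0.870 in fragments (SD, n = 6 mice; exact sign-flip permutation p = 0.03125 each, two-sided, the smallest possible, and 0.03125 after adjustment over the 2 tests).

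The next contrast was KO against WT within glutamine. In total tRNA the CTG part was 89.3% ± 0.321 in WT against 87.7% ± 0.409 in KO (SD over 3 mice a genotype), a difference of -1.60 percentage points with no overlap between genotypes. With 3 mice against 3 the two-sided exact permutation test cannot go below 0.1, and it gave p = 0.1, or 0.15 after adjustment over the 3 library types. In fragments the difference was -0.111 points, again without overlap (exact permutation p = 0.1, adjusted 0.15), and in ribosome-contained tRNA -0.711 points with overlapping genotypes (exact permutation p = 0.3). None of these differences passed the test.

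**Figure D4:**
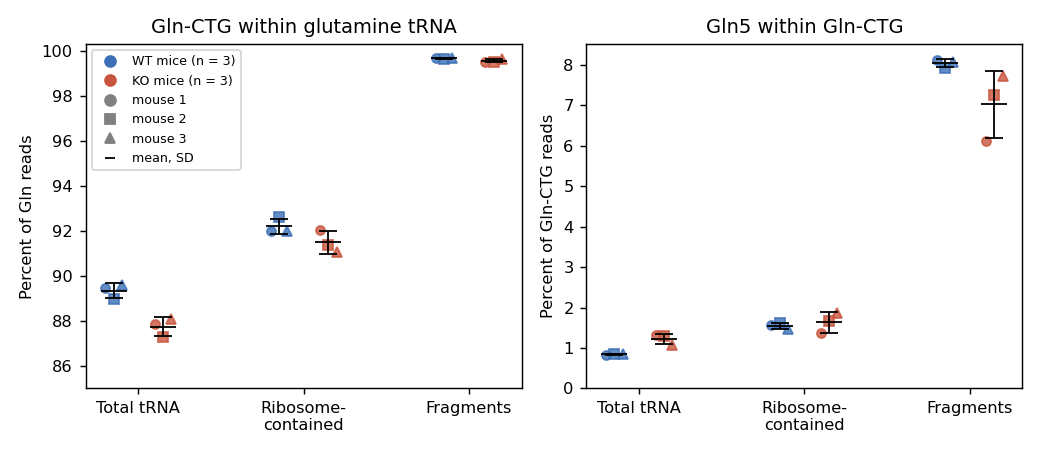
Gln-CTG as a percentage of glutamine reads (left, axis from 85%) and Gln5 as a percentage of Gln-CTG reads (right, axis from 0) in the 3 library types. Points are mice and bars mean and SD over 3 mice per genotype; the CTG part is 89.3% in WT total tRNA and 99.7% in WT fragments, and the Gln5 part is 0.838% and 8.04%.

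Gln-CTG fragments fell in KO brain. They made up 3.30%, 3.24% and 3.36% of fragment reads in KO mice 1 to 3, all below the 4.55% to 4.71% of WT. The mean was 4.61% ± 0.0907 in WT against 3.30% ± 0.0601 in KO (SD over 3 mice a genotype). The log2 fold change was -0.48 (SE 0.06, edgeR adjusted p = 1.1e-09), a 1.40-fold decrease. Of 46 families tested in fragments, 26.1% differed between genotypes, 9 higher and 3 lower in KO, and Gln-CTG had the 2nd lowest log2 fold change after Ser-AGA, a serine tRNA. The call held in all 13 alternative settings, between -0.54 and -0.43.

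Gln-TTG fragments held 18, 14 and 16 reads in WT and 25, 15 and 19 in KO, and the shares of the genotypes overlapped. Their log2 fold change was -0.08 (SE 0.18, edgeR adjusted p = 0.866), on few reads. The balance between the isoacceptors in fragments was taken as 1 log2 ratio per mouse, resting on these few TTG reads. It differed by -0.39 between genotypes (exact permutation p = 0.1, adjusted 0.15). This is the smallest p that 3 mice against 3 allow, so the test could not pass. Among isodecoders, 12.3% of the 81 tested in fragments differed between genotypes, and Gln3 and Gln5 were among them.

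Gln3 fragments were 4.33%, 4.21% and 4.18% of reads in WT and 3.10%, 3.01% and 3.10% in KO, without overlap. Gln3 fell by 0.47 on the log2 scale (SE 0.05, edgeR adjusted p = 2.21e-05). Gln5 fragments were 0.383%, 0.362% and 0.367% in WT and 0.202%, 0.235% and 0.260% in KO, again without overlap. Gln5 fell by 0.68 (SE 0.11, edgeR adjusted p = 0.000925), the 2nd lowest value of the 81 isodecoders, and Gln3 stood 4th lowest. Both calls held in all 13 alternative settings. The Gln5 part of Gln-CTG fragments was 8.04% ± 0.105 in WT against 7.03% ± 0.829 in KO (SD over 3 mice a genotype; two-sided exact permutation p = 0.1, adjusted 0.15), without overlap. Gln9 fragments differed by -0.08 (SE 0.22, edgeR adjusted p = 0.835).

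In total tRNA neither glutamine family passed the test, where 8.16% of 49 families did. Gln-CTG differed by -0.03 on the log2 scale (SE 0.06, edgeR adjusted p = 0.827) and Gln-TTG by 0.20 (SE 0.07, edgeR adjusted p = 0.0764). Gln-TTG had the 4th highest value of the 49, and without KO mouse 3, whose share was the lowest of the KO mice, it differed by 0.25 with an adjusted p of 0.0082 in edgeR. Among isodecoders 17.8% of 101 tested differed between genotypes in total tRNA, and of the 4 glutamine isodecoders tested only Gln5 was one of them.

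Gln5 was 0.0112%, 0.0107% and 0.0115% of total tRNA reads in WT and 0.0181%, 0.0175% and 0.0135% in KO, so every KO mouse lay above every WT mouse. Its log2 fold change was 0.45 (SE 0.16, edgeR adjusted p = 0.0361). The call was lost in 9 of 13 alternative settings, with adjusted p between 0.00526 and 0.228 over all of them. As a part of Gln-CTG, Gln5 was 0.838% ± 0.0102 in WT against 1.22% ± 0.132 in KO (SD over 3 mice a genotype; two-sided exact permutation p = 0.1, adjusted 0.15). Gln3 differed by -0.10 (SE 0.07), Gln6 by 0.82 (SE 0.41) and Gln9 by 0.13 (SE 0.08), with adjusted p of 0.335, 0.172 and 0.281 in the same edgeR fit. Without KO mouse 1, Gln6 differed by 1.18 with an adjusted p of 0.00908 in edgeR.

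In ribosome-contained tRNA, 22.4% of 49 families differed between genotypes and neither glutamine family did. Gln-CTG differed by 0.07 on the log2 scale (SE 0.07, edgeR adjusted p = 0.565) and Gln-TTG by 0.20 (SE 0.09, edgeR adjusted p = 0.145). Every KO mouse lay above every WT mouse for Gln-TTG. This was also so in total tRNA of the same mice, which is no independent repeat. Neither test passed and separated families were not counted, so it is a description only. Among isodecoders 3.88% of 103 differed, and none of the 4 glutamine isodecoders tested did. Gln3 differed by 0.12 (SE 0.14), Gln5 by 0.18 (SE 0.25), Gln6 by -0.66 (SE 0.36) and Gln9 by 0.25 (SE 0.15), with adjusted p of 0.649, 0.725, 0.309 and 0.402 in that edgeR fit.

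**Figure D5:**
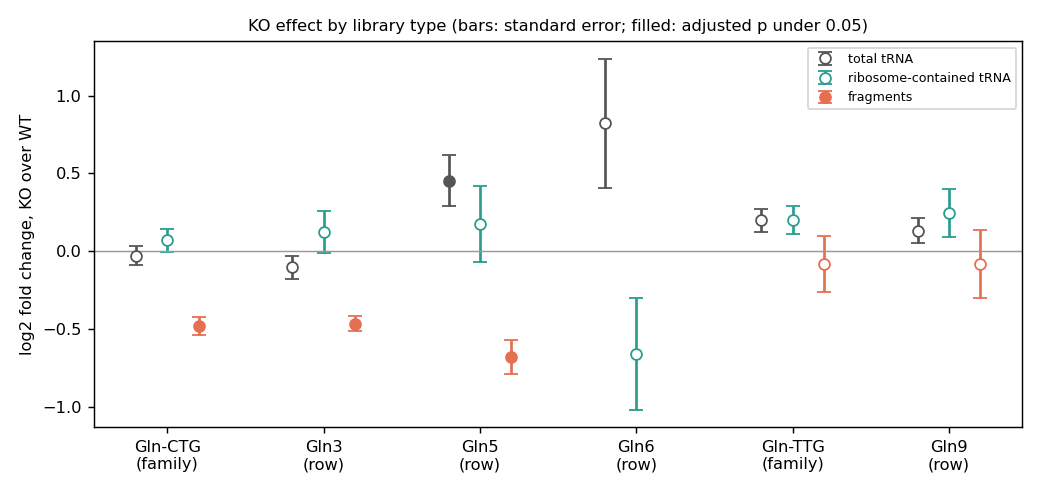
Log2 fold change of KO over WT for both glutamine families and the 4 isodecoders tested, in total tRNA (grey), ribosome-contained tRNA (green) and fragments (orange), with standard errors as bars and filled points for an adjusted p under 0.05. Gln-CTG, Gln3 and Gln5 lie at -0.48, -0.47 and -0.68 in fragments, and Gln5 lies at 0.45 in total tRNA.

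Whether the genotype difference itself differed between library types was tested as an interaction. For Gln-CTG, the KO effect in fragments minus that in total tRNA was -0.57 on the log2 scale (SE 0.08, edgeR adjusted p = 3.05e-05). Of 49 families 32.7% passed this test, and the median family stood at -0.19. The value for Gln-CTG kept its call in all 14 alternative settings, between -0.63 and -0.41, while the median family moved between -0.22 and -0.03 across scalings. For Gln-TTG it was -0.40 (SE 0.25, edgeR adjusted p = 0.263), which did not pass. Mouse by mouse, the fragment share of Gln-CTG was 2.40, 2.38 and 2.67 times its total tRNA share in KO mice 1 to 3, all below the 3.34 to 3.60 times of WT. For Gln-TTG the ratios were 0.0868, 0.0799 and 0.0750 in KO, also all below the 0.0973 to 0.104 of WT (exact permutation p = 0.1 for each family, the smallest possible, and 0.1 after adjustment over 5 ratios).

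Gln5 had the larger gap between library types, since it was higher in KO total tRNA and lower in KO fragments. Its interaction was -1.07 on the log2 scale (SE 0.16, edgeR adjusted p = 6.84e-05), where 8.57% of 105 isodecoders passed and the median was 0.06. It passed in all 14 alternative settings. The fragment share of Gln5 was 11.2, 13.4 and 19.2 times its total tRNA share in KO mice 1 to 3, all below the 31.8 to 34.1 times of WT. Gln3 gave -0.30 (SE 0.10, edgeR adjusted p = 0.0846) and passed in 9 of 14 alternative settings. Gln9 gave -0.14 (SE 0.26, edgeR adjusted p = 0.863).

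For ribosome-contained against total tRNA, the interaction passed in 0% of 51 families by edgeR's quasi-likelihood test. At an unadjusted p under 0.05 it found 11, while DESeq2 called 7 and limma-voom 2. The 0 depends on the scaling and the filter, since edgeR called 7 with RLE factors, 11 with total reads, 10 with TMM within each library type and 8 with a minimum count of 50. Gln-CTG gave 0.13 (SE 0.13, edgeR adjusted p = 0.603) and Gln-TTG 0.03 (SE 0.17, edgeR adjusted p = 0.89). The sign changed in 4 of 14 alternative settings for Gln-CTG and in 11 of 14 for Gln-TTG, so no direction is given. Among isodecoders 5.93% of 118 passed and no glutamine isodecoder did, with Gln3 at 0.18, Gln5 at -0.33 and Gln9 at 0.07. Gln6 gave -1.54 (SE 0.60, edgeR adjusted p = 0.116), and with the mouse as a replicate block -1.48 with an adjusted p of 0.0296. Its ribosome-contained share was 7.21, 3.43 and 5.47 times its total tRNA share in KO mice 1 to 3, all below the 12.2 to 17.6 times of WT, on 19 to 56 KO total tRNA reads.

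Glutamate and lysine offer the closest comparison, since their tRNAs are also split between a C-wobble and a U-wobble anticodon. For each mouse the log2 ratio of the C-wobble to the U-wobble family was taken, and its shift from total tRNA to fragments was compared. This comparison was added after the values were seen. The shift was 5.03 ± 0.151 for Gln, 1.74 ± 0.125 for Glu and 1.47 ± 0.185 for Lys (SD, n = 6 mice). The Gln value rests on 14 to 25 Gln-TTG reads per fragment library, against 931 to 1756 for Glu-TTC and 6688 to 12749 for Lys-TTT. Gln exceeded Glu by 3.29 and Lys by 3.56, in 6 of 6 mice each (exact sign-flip permutation p = 0.03125, adjusted 0.0417 over 4 tests, two-sided). From total tRNA to ribosomes the shift was 0.54 for Gln and -0.55 for Glu, again apart in 6 of 6 mice (exact permutation p = 0.03125, adjusted 0.0417). Lys shifted by 0.22, and Gln was above it in 5 of 6 mice (exact permutation p = 0.0625, adjusted 0.0625), which did not pass.

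The KO effect on the same log2 ratio was -0.23 for Gln in total tRNA, 0.09 for Glu and 0.03 for Lys. In fragments it was -0.39 for Gln, on few Gln-TTG reads, 0.10 for Glu and -0.15 for Lys. The 6 differences between Gln and the other pairs had exact permutation p between 0.1 and 0.8 (adjusted 0.2 to 0.8). With 3 mice against 3 this test cannot go below 0.1, so none could pass. It therefore cannot decide whether the KO effect on Gln differs from that on Glu or Lys.

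Gln-CTG is 1 of 8 families on a list of tRNAs reported as FTSJ1 targets, and in fragments it fell where the other members past the test rose. Of the 8, 4 passed and rose in KO fragments, namely Phe-GAA (2.08 on the log2 scale), Trp-CCA (1.21), Cys-GCA (0.34) and also Arg-CCG (0.23). Gln-CTG was the only member to pass and fall. Arg-TCG lay at -0.29 (edgeR adjusted p = 0.0622), Leu-TAA at -0.01 and Leu-CAA at 0.19, none of them past the test. The median in KO fragments was 0.21 over the list and -0.04 over all families. Over all 46 families 9 rose and 3 fell there, 26.1% in all. In total tRNA 2 of 8 fell (Phe-GAA and Trp-CCA) and 0 rose, against 3 lower and 1 higher of all 49 families (8.16%). In ribosome-contained tRNA 2 of 8 fell (Phe-GAA and Arg-TCG) and 0 rose, against 6 lower and 5 higher of 49 (22.4%), a share near that of the list. These calls are from edgeR's quasi-likelihood test over all families.

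Gln-TTG is 1 of 5 families on a list of tRNAs whose wobble uridine carries a modified side chain, with Glu-TTC, Lys-TTT, Arg-TCT and Gly-TCC. None of the 5 differed between genotypes in total tRNA or in fragments. In ribosome-contained tRNA only Gly-TCC, a glycine tRNA, passed, and it fell by 0.25 on the log2 scale; 1 of 5 is close to the 22.4% of all families. The list had a median of 0.05 in total tRNA and -0.08 in fragments, against 0.03 and -0.04 over all families. At an unadjusted p under 0.05 edgeR found 12 families in total tRNA and 17 in fragments.

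Over the 18 libraries, the 3 families whose log2 CPM, a count relative to library size, most resembled Gln-CTG were Gly-ACC (Pearson r = 0.971), Gly-GCC (0.951) and Gly-CCC (0.903), out of 45 compared. For Gln-TTG they were Tyr-GTA (0.996), Asn-GTT (0.993) and Ser-GCT (0.993). These correlations are a description across libraries that fall into 3 types of unequal depth. The glycine families that resembled Gln-CTG, like it, held a larger share of fragments than of total tRNA in WT, and the families that resembled Gln-TTG held a smaller one.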

How the data were processed

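Per the file headers, the authors deposited sequenced read counts, whole numbers per tRNA entry and library, in 1 table with 147 entries and 18 library columns. Per the submitters' processing notes, Bowtie2 was used. The sources used here do not give its version and settings, the tRNA reference, the genome build or how reads with several matches were handled. Counts carry no molecular identifiers, so PCR copies are counted as reads, and intervals and floors cover counting error only. A column headed K3 was taken as KO mouse 3. Read ends and lengths, and therefore the part of a tRNA a fragment covers, were not analysed here.

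Entries were summed to 54 anticodon families. Counts of families, and of entries (isodecoders), went through edgeR 4.0.16 (R 4.3.3): TMM factors, a low-count filter (filterByExpr, minimum count 10), the quasi-likelihood test and Benjamini-Hochberg adjustment over all features tested, with a threshold of 0.05. Each fit held 6 libraries within a type or 12 libraries of 2 types in 4 groups. The standard error was the absolute log2 fold change divided by the square root of F. Exact two-sided permutation tests of shares used SciPy 1.17.1, over 3 mice against 3 or by sign flips over 6 mice. The log2 CPM used a prior count of 2. Alternatives used DESeq2 1.42.0, limma 3.58.1 (voom), other scalings, other filters, the replicate block and each mouse left out. The procedure was tried on simulated data with changes placed only in features with many reads. Scarce ones such as Gln6 and Gln-TTG fragments were therefore not covered. Python 3.11.15, pandas 2.3.3 and matplotlib 3.10.9 served for tables and plots.

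Library types of a mouse come from the same animal, per the labels, which pairs them. Their deviations from the group means correlated between -0.34 and 0.64 over families for ribosome-contained with total tRNA, and between -0.14 and 0.32 for fragments with total tRNA. Libraries of different mice of a genotype spanned ranges as wide, -0.75 to 0.65 and -0.34 to 0.24, so these correlations do not show the pairing. The main fits over 2 types took their 12 libraries as independent. The sign-flip tests and the fits with the mouse as a block used the pairing. P-values rest on the spread between these mice. All glutamine entries and families are named. Besides them the text names the C-wobble and U-wobble families of Glu and Lys, members of both lists, Ser-AGA and the 3 most alike families. The members, the lists, the tests and the alternatives were chosen with earlier results of these data known, and the Gln5 part of Gln-CTG, the share ratios, the alternatives for isodecoders between library types and the comparison with Glu and Lys were added after the values were seen.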

Additional observations from a re-analysis of the deposited data

Results flagged for a closer look

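The KO effect on Gln-CTG differed between fragments and total tRNA, by -0.57 on the log2 scale (SE 0.08, edgeR adjusted p = 3.05e-05 for the interaction). The median family stood at -0.19 in this fit, and Gln-CTG at -0.41 with TMM within each library type. In separate fits of each type, Gln-CTG fell by 0.48 in fragments and differed by -0.03 in total tRNA. Those fits have their own scaling, so their values do not add up to the interaction. The KO effect on the isodecoder Gln5 differed by -1.07 between the same library types (SE 0.16, edgeR adjusted p = 6.84e-05 for the interaction). In the separate fits Gln5 lay at 0.45 in total tRNA and -0.68 in fragments. Gln3, which held most Gln-CTG reads, gave an interaction of -0.30 (SE 0.10, edgeR adjusted p = 0.0846). It did not pass, but passed in 9 of 14 alternative settings.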

How the results depend on the processing

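Of 270 alternative values of the main comparisons, 229 kept their direction and their side of the threshold, 17 changed sign, 20 lost and 4 gained a call; no edgeR call on Gln-CTG in fragments or between library types was lost. Without 1 mouse, the CTG part of glutamine stayed 3.12 to 3.48 points higher in ribosomes and 10.8 to 11.3 in fragments than in total tRNA, where 5 mice allow no exact p below 0.0625. Gln-TTG in total tRNA ranged from 0.16 to 0.25 without 1 mouse and passed without KO mouse 3 (0.25). Gln-TTG in WT ribosomes against total tRNA passed with a minimum count of 50 (0.18). The number of glutamine isodecoders that differed in total tRNA was 0 with RLE factors, with a minimum count of 50, with no filter or with voom, 2 with total reads or the replicate block, and 0 to 1 without 1 mouse. Gln-CTG in total tRNA changed sign with total reads (0.0037). The ribosome minus total interaction of Gln-CTG changed sign with a minimum count of 50 (-0.043) and ranged from -0.037 to 0.069 without 1 mouse. That of Gln-TTG was -0.10 with RLE factors, -0.035 with total reads, -0.14 with a minimum count of 50, -0.10 with DESeq2 and -0.0047 with TMM within each type, and ranged from -0.11 to -0.021 without 1 mouse. That of Gln9 was -0.033 with total reads, and Gln9 in WT ribosomes against total tRNA was 0.17 with total reads and 0.068 with TMM within each type. Without 1 mouse, KO fragments ranged from -0.18 to 0.024 for Gln-TTG and from -0.18 to 0.031 for Gln9, and the Gln5 part of ribosome-contained Gln-CTG from -0.0347 to 0.219. The fragment minus total interaction of Gln9 was 0.0018 with no filter. Except for Gln9 in WT ribosomes, none of these values with a changed sign passed a test in either form, and the cause was not tested.

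For same-numbered WT and KO libraries, deviations from the group means correlated with r from -0.18 to 0.11 in total tRNA. The range was -0.48 to -0.22 in ribosome-contained tRNA and -0.26 to 0.06 in fragments. Libraries with different numbers spanned -0.23 to 0.27, -0.31 to 0.52 and -0.30 to 0.24, in the same order. These correlations do not show a pairing of the genotypes by number. They cannot exclude one, since the same check did not show the known pairing of library types either. With the number as a replicate block, Gln-CTG in fragments differed by -0.48, and Gln6 in total tRNA, at 0.84, passed (adjusted p = 0.00817 in edgeR). With the mouse as a block, the Gln-CTG interaction between fragments and total tRNA was -0.57; it gained 2 calls on isodecoders, the Gln6 interaction between ribosomes and total tRNA (-1.48) and Gln3 in WT ribosomes against total tRNA (0.20). Gln-TTG fragments, with 14 to 25 reads, had no value with a minimum count of 50 and no adjusted p in DESeq2.

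The number of families or isodecoders that passed, over all of them, also moved. Without 1 mouse, families between genotypes numbered 1 to 9 in total tRNA (4 with all mice), 3 to 22 in ribosome-contained tRNA (11), 7 to 14 in fragments (12), and 8 to 15 and 0 to 13 for the fragment and ribosome interactions (16 and 0). Total tRNA gave 2 with total reads, and the fragment interaction 8 with TMM within each type. For isodecoders, other settings gave 10 to 25 in total tRNA (18), 4 to 13 in ribosome-contained tRNA (4), 9 to 16 for the fragment interaction (9) and 3 to 16 for the ribosome interaction (7).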
